A study of Homo sapiens with 9 samples.

Results

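The unfolded protein response and the chaperones of the endoplasmic reticulum (ER) were followed as 32 genes, named as a list, of the 12505 genes tested on the arrays. They comprised 6 sensors and transcription factors, 19 genes known as targets of XBP1 and ATF6, and 7 genes known as targets of ATF4. Each gene was read through its brightest probe set that is annotated to it alone, by the mean over all arrays, and all 32 passed the filter on low signals. Total RNA came from SW1783 cells, an established human glioma line, 24 h after transfection with 50 nM of a miRNA duplex using Lipofectamine RNAiMAX. The groups were miR-376a*A, miR-376a*G and miR-control, with 3 Affymetrix arrays each, labelled as biological replicates. All 3 groups were therefore transfected, and untransfected cells were not analysed here. The study asked which genes each form changed against the control duplex. A direct contrast of miR-376a*A against miR-376a*G is possible on the same arrays.

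ER stress is sensed by 3 membrane proteins. IRE1, encoded by ERN1, splices the XBP1 transcript in the cytoplasm so that it encodes an active transcription factor. PERK, encoded by EIF2AK3, phosphorylates a translation initiation factor, which lowers protein synthesis but favours translation of ATF4. ATF6 is cut by the Golgi proteases encoded by MBTPS1 and MBTPS2, and its freed part enters the nucleus. XBP1 and ATF6 mainly switch on chaperones and ER-associated degradation, and ATF4 mainly amino acid supply, redox genes and, when stress persists, genes tied to cell death. Array signals report transcript amount, so splicing of XBP1, cleavage of ATF6 and translation of ATF4 were not measured.

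The name miR-376a* is an older one for the 5′ arm miRNA of the miR-376a hairpins. The forms A and G differ at a base where RNA editing turns adenosine into inosine, which pairs as G does. The RefSeq mature sequence of hsa-miR-376a-5p from MIR376A1 lies at chr14:101040788-101040809, plus strand, in GRCh38.p14. It is shown with its seed, bases 2 to 8, in capitals, because this stretch pairs with targets. The sequence of the G duplex was not used here.
hsa-miR-376a-5p: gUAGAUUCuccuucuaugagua

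The deposited signals had a median of 18.8 to 24.0 per array. Values are given as normalized signals in array units, and differences are on the log2(signal + 16) scale, which understates the change of dim genes. SW1783 cells had high signals of VIM (2542) and CD44 (2294), both common in glioma lines, whereas the astrocyte markers GFAP (2.21) and S100B (1.95) did not pass the filter. NES (15.2) and OLIG2 (8.66) did not pass it either, nor did PTPRC (7.55) of leukocytes and EPCAM (3.82) of epithelium. SOX2 (20.9), PECAM1 (77.3), RBFOX3 (22.5) and MBP (52.5) passed it. In bulk RNA, fewer cells with a transcript and less of it per cell cannot be told apart.

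Control replicate 1 stood apart from the other arrays. Its highest rank correlation with any array was 0.941, against 0.969 to 0.970 for the other 8. Set against the mean of the other control arrays, it differed by 2-fold or more for 2 of the 32 members (6.25%) and for 772 of all genes tested (6.17%). The 2 members were EIF2AK3, 3.22-fold lower in control replicate 1, and SDF2L1, 2.54-fold higher in it. Further members that were low in this array were ERN1 (by a log2 difference of -0.79), ATF6 (-0.76), DNAJC3 (-0.61) and DNAJB9 (-0.55), and PPP1R15A (0.90), DDIT3 (0.79) and CALR (0.63) were high. On leaving it out, the difference from control changed sign for 9 members with miR-376a*A and for 11 with miR-376a*G, none of which passed with or without it. Both forms were set against the same 3 control arrays, so their differences from the control are not independent of each other.

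By the brightest probe sets, XBP1 was higher with either form than with the control duplex, and TRIB3 separated the forms. For ERO1A, 2 probe sets other than its brightest were higher with either form. None of the 19 genes listed as targets of XBP1 and ATF6 passed limma's test by its brightest probe set over all arrays. This does not show that they were unchanged, and some of their other probe sets differed by more. With limma's adjusted p under 0.05, 1 of 32 members (3.12%) passed with miR-376a*A against control, against 3.33% of all genes tested. With miR-376a*G against control 1 member also passed, against 4.62% of all genes, or 360 genes where the replicate number is kept as a block and 578 where it is not. Between miR-376a*A and miR-376a*G 1 member passed, against 2.63% of all genes. At an unadjusted p under 0.05, 4, 5 and 3 members passed in these comparisons (12.5%, 15.6% and 9.38%), where 14.9%, 17.8% and 10.7% of all genes did. All 3 of these unadjusted shares lie under those of all genes, and the adjusted shares rest on 1 gene each.

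The 3 arrays of the groups did not overlap for 6 members with miR-376a*A against control, for 5 with miR-376a*G against control and for 6 between the forms. Over all genes tested the groups did not overlap for 20.5%, 21.7% and 29.5%. The median log2 difference of the 32 members was 0.02 in miR-376a*A and 0.00 in miR-376a*G cells against control, and 0.04 between the forms. Over all genes tested these medians were 0.01, 0.01 and 0.00. The median size of the difference, whatever its sign, was 0.09, 0.15 and 0.11 for the members and 0.14, 0.15 and 0.11 for all genes.

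**Figure D1:**
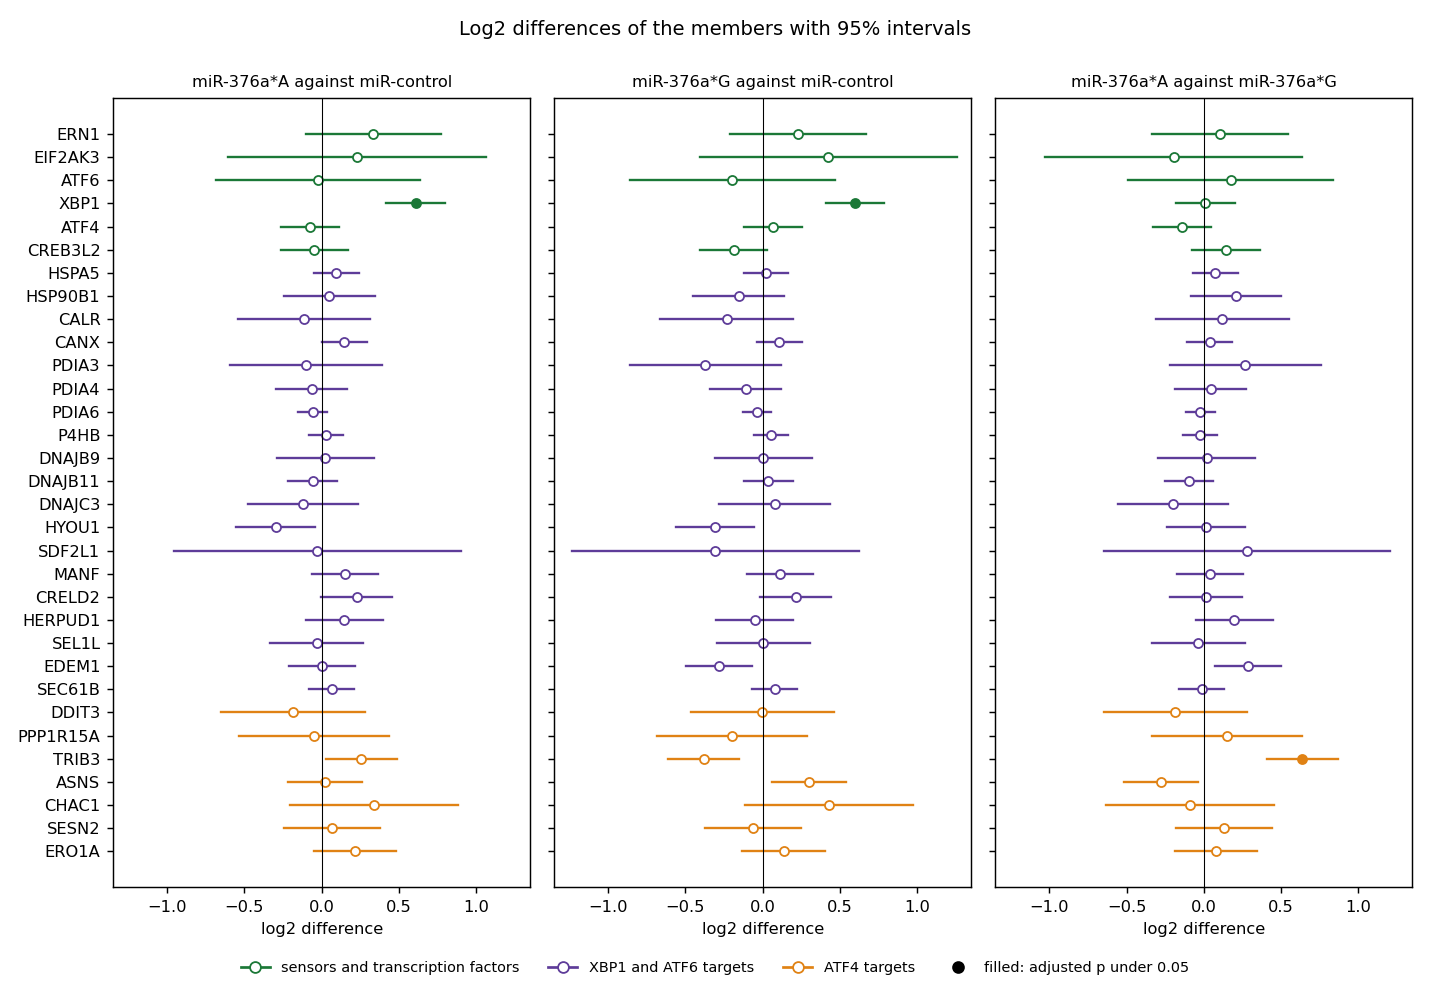
Log2 differences (x axis) of the 32 members (rows, by role) in the 3 comparisons, with 95% intervals from limma as lines and filled points for an adjusted p under 0.05. XBP1 stands apart from 0 in both comparisons with the control (0.61 and 0.60), TRIB3 between the forms (0.64), and most chaperones lie close to 0.

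Among the sensors and transcription factors, XBP1 was the 1 of 6 that passed the test, and it did so with both forms. XBP1 encodes the factor that IRE1 activates by splicing. Its signal was 519, 523 and 529 in miR-376a*A cells, 499.5, 512 and 549 in miR-376a*G cells and 328, 338 and 349 in control cells. All 6 arrays of the 2 forms lay above all 3 control arrays, and the forms overlapped each other. The means were 524 ± 4.98 in miR-376a*A cells, 520.4 ± 25.7 in miR-376a*G cells and 338 ± 10.9 in control cells (SD, n = 3 each). XBP1 rose 1.52-fold with miR-376a*A (log2 difference 0.61, SE 0.09, limma adjusted p = 0.00364) and 1.51-fold with miR-376a*G (log2 difference 0.60, SE 0.09, limma adjusted p = 0.00359). Between miR-376a*A and miR-376a*G the log2 difference was 0.01, with a 95% interval of -0.18 to 0.20. Control replicate 1 lay with the other control arrays here, and without it the differences were 0.59 (limma adjusted p = 0.000424) and 0.58 (limma adjusted p = 0.000426). A further XBP1 probe set was dim, with a mean of 18.1, and did not pass the filter.

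The promoter of XBP1 is shown because XBP1 was the member that rose with both forms and because it holds an ER stress element, the site through which ATF6 acts. The capitals mark that element, CCAAT and CCACG separated by 9 bases, whose first base lies 52 bases before the RefSeq start. The window runs from 250 bases before the start through the first 50 bases of the transcript, at chr22:28800520-28800819, minus strand, in GRCh38.p14.
XBP1 promoter: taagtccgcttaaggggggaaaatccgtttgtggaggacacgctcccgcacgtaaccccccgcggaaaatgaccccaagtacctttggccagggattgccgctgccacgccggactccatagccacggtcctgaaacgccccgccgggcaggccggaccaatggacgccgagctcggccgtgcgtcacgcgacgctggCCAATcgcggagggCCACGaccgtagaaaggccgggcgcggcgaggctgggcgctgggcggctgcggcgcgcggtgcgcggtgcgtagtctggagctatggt
Promoters of 31 members were in the RefSeq table. On either strand the element was found in 6 of them (19.4%), namely XBP1, HSPA5, HSP90B1, CALR, CANX and CRELD2, and in 22 of all 27305 promoters (0.0806%). Of those 6 genes, XBP1 alone passed the test over all 9 arrays by its brightest probe set. Every element contains a CCAAT box, which by itself was in 24 of the 31 (77.4%) and in 35.7% of all promoters. The core TGACGTGG of the unfolded protein response element was in 1 member, HYOU1, and in 0.795% of all promoters.

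The sensors themselves did not pass the test. EIF2AK3, which encodes PERK, had 215, 196 and 186 in miR-376a*A cells, 205, 252 and 233 in miR-376a*G cells and 68.0, 237 and 272 in control cells. A single control array was far below all the others, and it decides the sign. The log2 difference was 0.23 in miR-376a*A and 0.42 in miR-376a*G cells over all arrays (limma adjusted p = 0.838 and 0.615), and -0.33 and -0.14 without control replicate 1 (limma adjusted p = 0.0637 and 0.415). Between miR-376a*A and miR-376a*G the EIF2AK3 difference was -0.19.

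ERN1, which encodes IRE1, had 97.4, 83.1 and 83.2 in miR-376a*A cells, 75.9, 85.8 and 79.5 in miR-376a*G cells and 41.1, 79.8 and 85.7 in control cells. The groups overlapped, and control replicate 1 was the lowest of the 9 arrays. Its log2 difference was 0.33 in miR-376a*A and 0.23 in miR-376a*G cells over all arrays, and 0.07 and -0.03 without that array.

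ATF6, the cleaved sensor, was read by 4 probe sets past the filter that disagree in spread. The brightest had 149.8, 318 and 250.1 in miR-376a*A cells, 256, 149.7 and 212 in miR-376a*G cells and 159.5, 305 and 259 in control cells. Each group held an array near the bottom of this range, and in this probe set a change was not detectable at this spread (95% interval of the log2 difference -0.69 to 0.64 with miR-376a*A and -0.86 to 0.47 with miR-376a*G). The ATF6 difference in it was -0.02 and -0.20 over all arrays, and -0.28 and -0.45 without control replicate 1. The second brightest had 200.05, 163 and 146 in miR-376a*A cells, 116, 119 and 144 in miR-376a*G cells and 169.7, 216 and 243 in control cells. In it all miR-376a*G arrays lay below all arrays of the other groups. Its difference with miR-376a*G was -0.66 (SE 0.16, limma adjusted p over probe sets = 0.0532) over all arrays and -0.79 without control replicate 1 (limma adjusted p over probe sets = 0.00282). With miR-376a*A it was -0.28 (limma adjusted p over probe sets = 0.48). The 2 dimmer ATF6 probe sets, with means of 38.9 and 29.5, differed by -0.53 and -0.22 with miR-376a*G. Neither passed over all arrays, and the brighter of them passed without control replicate 1 (-0.72, limma adjusted p over probe sets = 0.00429).

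ATF4, the factor downstream of PERK, had 813, 829 and 804 in miR-376a*A cells, 906, 837 and 967 in miR-376a*G cells and 928, 866 and 794 in control cells. The miR-376a*A arrays lay below all miR-376a*G arrays, by a log2 difference of -0.14 that did not pass (95% interval -0.33 to 0.04, limma adjusted p = 0.67). CREB3L2, an ER-bound factor related to ATF6, had 900.2, 858 and 902 in miR-376a*A cells, 732, 836 and 843 in miR-376a*G cells and 808, 927 and 1026 in control cells. The miR-376a*A arrays lay above all miR-376a*G arrays. Its difference of -0.19 with miR-376a*G against control (limma adjusted p = 0.36) became -0.28 without control replicate 1 (limma adjusted p = 0.0346).

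**Figure D2:**
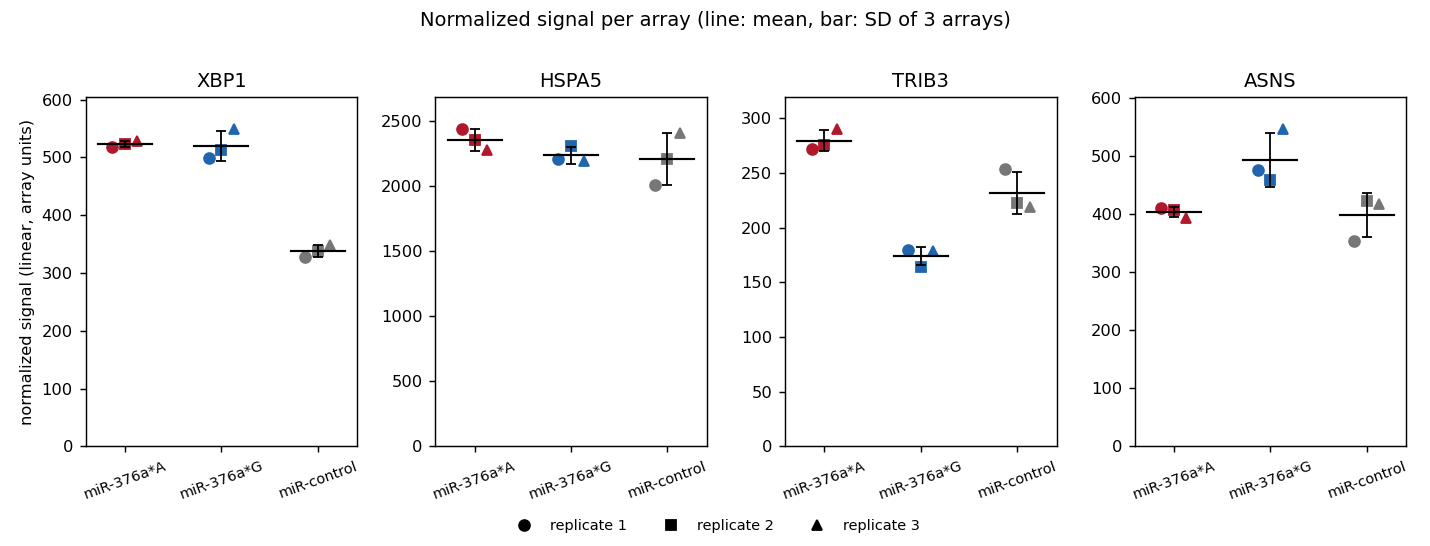
Normalized signal (y axis, linear array units from 0) of XBP1, HSPA5, TRIB3 and ASNS in each array, with the mean as a line and the SD of 3 arrays as a bar. XBP1 lies at 499.5 to 549 with either form and at 328 to 349 in control cells, HSPA5 overlaps between all groups, TRIB3 is highest with miR-376a*A and lowest with miR-376a*G, and ASNS is highest with miR-376a*G.

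By the brightest probe sets, none of the 19 XBP1 and ATF6 targets passed limma's test in any comparison over all arrays. Another probe set of CANX passed with miR-376a*G, and MANF, CRELD2, DNAJC3 and EDEM1 passed in some comparisons without control replicate 1. At an unadjusted p under 0.05, 2 of the 19 passed with miR-376a*A against control, 2 with miR-376a*G against control and 1 between the forms. These were 10.5%, 10.5% and 5.26% of the 19, where 14.9%, 17.8% and 10.7% of all genes passed. The median log2 difference of the 19 was 0.00 with either form against control and 0.04 between the forms. The 95% interval lay within 1.5-fold in either direction for 17 of the 19 with miR-376a*A, leaving out PDIA3 and SDF2L1, and for 16 with miR-376a*G, leaving out CALR as well. Between the forms it lay within that bound for 17, all but PDIA3 and SDF2L1.

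HSPA5 encodes BiP, the chaperone that holds the sensors inactive and is itself a standard readout of ER stress. It had 2437, 2351 and 2274 in miR-376a*A cells, 2209, 2307 and 2189 in miR-376a*G cells and 2006, 2209 and 2408 in control cells. The control arrays spanned all values of the forms but 1. The log2 difference was 0.10 with miR-376a*A (95% interval -0.05 to 0.24) and 0.02 with miR-376a*G (95% interval -0.12 to 0.17). A dimmer HSPA5 probe set went the other way, with 181, 185 and 181 in miR-376a*A cells, 177, 164 and 138 in miR-376a*G cells and 329, 227 and 200.1 in control cells. There all 6 arrays of the forms lay below all 3 control arrays. Its difference was -0.40 in miR-376a*A and -0.58 in miR-376a*G cells over all arrays (limma adjusted p over probe sets = 0.308 and 0.0963), and -0.21 and -0.39 without control replicate 1 (0.25 and 0.0352). The HSPA5 promoter is shown for comparison with that of XBP1, since both hold an ER stress element and of these 2 genes XBP1 passed the test by its brightest probe set. The element, in capitals, begins 66 bases before the start. The window lies at chr9:125241294-125241593, minus strand, in GRCh38.p14.
HSPA5 promoter: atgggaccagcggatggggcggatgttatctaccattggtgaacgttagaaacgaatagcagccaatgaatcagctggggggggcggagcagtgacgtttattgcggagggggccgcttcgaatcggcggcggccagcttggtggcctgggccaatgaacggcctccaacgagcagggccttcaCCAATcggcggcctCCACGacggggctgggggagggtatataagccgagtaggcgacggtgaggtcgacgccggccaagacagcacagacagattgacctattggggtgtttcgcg

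The other folding factors with narrow intervals were the disulfide isomerases PDIA6 (log2 difference -0.06 in miR-376a*A and -0.04 in miR-376a*G cells) and P4HB (0.03 and 0.05), the BiP partner DNAJB11 (-0.06 and 0.04) and the translocon subunit SEC61B (0.07 and 0.08). Against control the widest 95% bounds of these 4 were -0.22 (DNAJB11, miR-376a*A) and 0.22 (SEC61B, miR-376a*G). The lectin chaperone CANX was at 3097, 3116 and 3097 in miR-376a*A cells, 2944, 2944 and 3186 in miR-376a*G cells and 2535, 2812 and 3092 in control cells. The miR-376a*A arrays lay just above all control arrays, by 0.15 (95% interval 0.00 to 0.29, limma adjusted p = 0.335). Another CANX probe set was higher by 0.41 in miR-376a*G cells against control (limma adjusted p over 22896 probe sets = 0.0376). With miR-376a*A that probe set differed by 0.37 (limma adjusted p over probe sets = 0.0668), and without control replicate 1 both comparisons passed, the miR-376a*A difference being 0.33 and the miR-376a*G difference 0.37. The dimmer CANX probe sets past the filter had means of 476 and 143. They were higher by 0.39 and 0.81 with miR-376a*A and by 0.31 and 0.61 with miR-376a*G. Neither passed over all arrays, and without control replicate 1 that with a mean of 143 passed with miR-376a*A (0.44, limma adjusted p over probe sets = 0.0209). The CANX probe sets past the filter were thus all higher with either form, and disagree on whether a difference passes.

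HYOU1, an ER chaperone of the HSP70 family, had 429, 319.8 and 379 in miR-376a*A cells, 359, 363 and 388 in miR-376a*G cells and 466, 468 and 455 in control cells. All 6 arrays of the 2 forms lay below all 3 control arrays. The log2 difference was -0.30 with miR-376a*A (SE 0.11, limma adjusted p = 0.241) and -0.31 with miR-376a*G (SE 0.11, limma adjusted p = 0.173). It was -0.29 and -0.31 without control replicate 1, so it did not pass in either case. With array weights, which called 18.5% of all genes, HYOU1 passed with miR-376a*A (-0.38, limma adjusted p = 0.0201). With miR-376a*G it passed in 1 of 20 alternative ways of processing (limma adjusted p = 0.0377). EDEM1, which leads misfolded glycoproteins to degradation, had 600.0, 582 and 605 in miR-376a*A cells, 484, 448 and 526 in miR-376a*G cells and 632, 539.8 and 615 in control cells. The miR-376a*G arrays were the lowest 3 of the 9. The log2 difference between miR-376a*A and miR-376a*G was 0.29 over all arrays (SE 0.10, limma adjusted p = 0.224), and that between miR-376a*G and control was -0.28 (limma adjusted p = 0.143).

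MANF, a secreted factor of ER-stressed cells, had 1099, 1113 and 1106 in miR-376a*A cells, 1112, 1056 and 1061 in miR-376a*G cells and 1161, 974 and 867 in control cells. CRELD2, also a secreted ER stress protein, had 816, 780.1 and 805 in miR-376a*A cells, 759, 799 and 819.7 in miR-376a*G cells and 767, 578 and 714 in control cells. In both genes control replicates 2 and 3 lay below all 6 arrays of the forms, while control replicate 1 lay among or above them. MANF differed by 0.15 and 0.11 from control over all arrays, and by 0.26 and 0.22 without control replicate 1 (limma adjusted p = 0.0228 in miR-376a*A and 0.038 in miR-376a*G cells). CRELD2 differed by 0.23 and 0.21 over all arrays, and by 0.31 and 0.30 without it (limma adjusted p = 0.0394 in miR-376a*A and 0.0401 in miR-376a*G cells).

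The signals of 2 further targets varied most within groups. SDF2L1, a cofactor of BiP, had 273, 509 and 573 in miR-376a*A cells, 526, 277 and 299 in miR-376a*G cells and 832, 404 and 250.045 in control cells. PDIA3, the isomerase that works with calnexin and calreticulin, had 878, 1358 and 1317 in miR-376a*A cells, 1250.2, 664 and 1071 in miR-376a*G cells and 1281, 1265 and 1205 in control cells. Single arrays of each form lay far from the other arrays of that form, and neither passed a test. The SDF2L1 difference was -0.03 with miR-376a*A and -0.31 with the G form over all arrays, and 0.42 and 0.14 without control replicate 1. PDIA3 differed by -0.10 with miR-376a*A and by -0.37 with miR-376a*G in its brightest probe set. Its dimmer probe sets past the filter had means of 268 and 166. They differed by 0.12 and 0.01 with miR-376a*A and by 0.05 and -0.03 with miR-376a*G, and neither passed.

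The remaining targets gave no call over all arrays. They were the chaperones HSP90B1 (log2 difference 0.05 in miR-376a*A and -0.16 in miR-376a*G cells) and CALR (-0.11 and -0.23, or 0.09 and -0.03 without control replicate 1), the isomerase PDIA4 (-0.07 and -0.11) and the J-domain proteins DNAJB9 (0.02 and 0.00, or -0.16 and -0.18 without it) and DNAJC3 (-0.12 and 0.08). HERPUD1 (0.15 and -0.05) and SEL1L (-0.03 and 0.00), both parts of the ER degradation machinery, complete the list. DNAJC3, which inhibits PERK, had 522, 448 and 462 in miR-376a*A cells, 522, 593 and 534 in miR-376a*G cells and 388, 577 and 625 in control cells. Control replicate 1 was the lowest of the 9 arrays for DNAJC3, and without it the difference with miR-376a*A was -0.33 (limma adjusted p = 0.0374). For HERPUD1 the 3 miR-376a*A arrays (372 to 376.5) lay above the 3 miR-376a*G arrays (318 to 335), a log2 difference of 0.20 (limma adjusted p = 0.641).

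**Figure D3:**
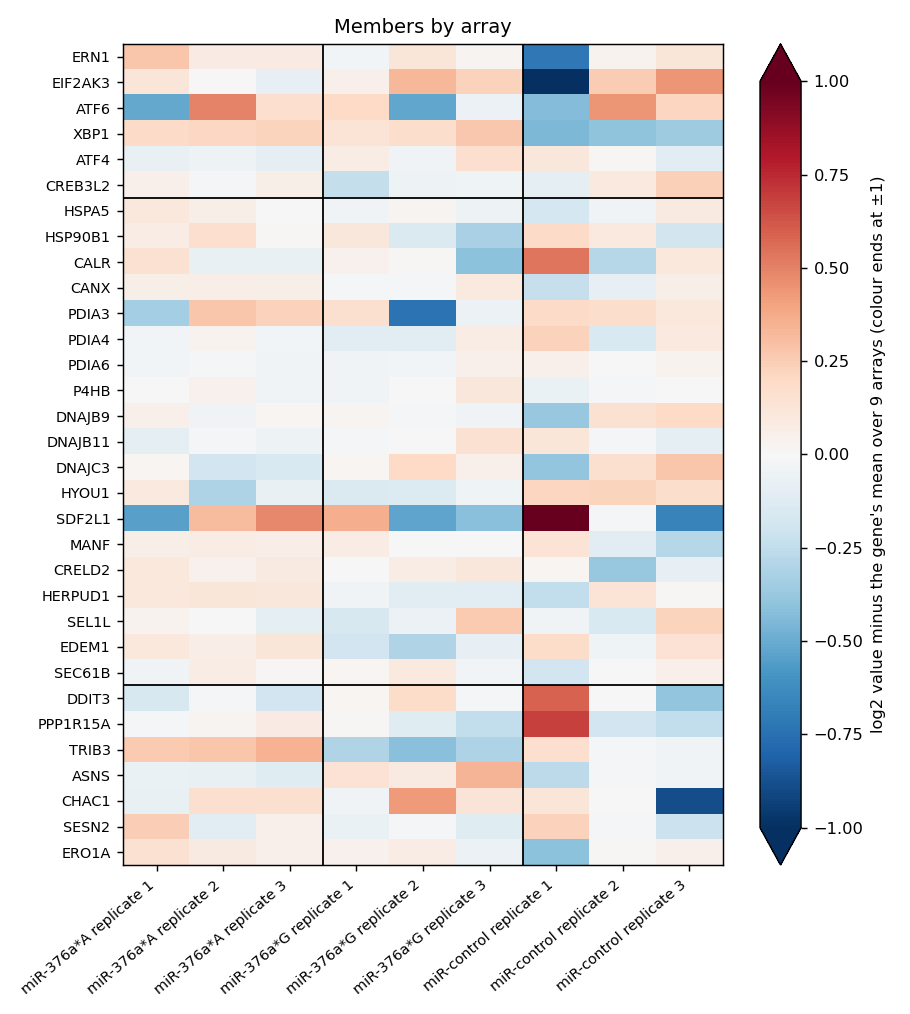
Members (rows, by role) in each array (columns), as the log2 value minus the gene's mean over the 9 arrays; red is above and blue below that mean, and the colour ends at 1 in either direction. XBP1 is red in all 6 arrays of the forms and blue in all 3 control arrays, and control replicate 1 holds the strongest colours of EIF2AK3, ERN1, SDF2L1 and PPP1R15A.

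By the brightest probe sets, TRIB3 of the 7 ATF4 targets passed limma's test between the forms, and none passed against control over all arrays. For ERO1A, also among the 7, 2 other probe sets passed against control with both forms and are given below. At an unadjusted p under 0.05, 1 passed with miR-376a*A against control, 2 with miR-376a*G against control and 2 between the forms. These were 14.3%, 28.6% and 28.6% of the 7, where 14.9%, 17.8% and 10.7% of all genes passed. The shares of the 7 rest on 1 or 2 genes each. The median log2 difference of the 7 was 0.07 in miR-376a*A and -0.00 in miR-376a*G cells against control, and 0.08 between the forms. TRIB3, a pseudokinase that binds AKT and ATF4, had 272, 276 and 290.1 in miR-376a*A cells, 179, 164 and 178 in miR-376a*G cells and 253, 223 and 219 in control cells. The 3 groups did not overlap: miR-376a*A was highest, the control in the middle and miR-376a*G lowest. The means were 279 ± 9.48 in miR-376a*A cells, 174 ± 8.45 in miR-376a*G cells and 232 ± 18.9 in control cells (SD, n = 3 each). TRIB3 was 1.56-fold higher in miR-376a*A than in miR-376a*G cells (log2 difference 0.64, SE 0.10, 95% interval 0.41 to 0.87, limma adjusted p = 0.00849).

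Against control TRIB3 differed by 0.26 with miR-376a*A (limma adjusted p = 0.27) and by -0.38 with miR-376a*G (limma adjusted p = 0.0697), so neither passed over all arrays. Without control replicate 1 both did, at 0.32 (limma adjusted p = 0.0249) and -0.32 (limma adjusted p = 0.0208). The call between the forms was lost without miR-376a*A replicate 2 (limma adjusted p = 0.0575), without miR-376a*A replicate 3 (0.0658) and without miR-376a*G replicate 2 (0.0648). A dimmer TRIB3 probe set, with a mean of 22.9, differed by 0.39 between the forms, by 0.42 with miR-376a*A against control and by 0.03 with miR-376a*G against control, and passed in none of these. The lower TRIB3 signal in miR-376a*G than in control cells was thus not seen in that probe set. With the mean of the TRIB3 probe sets the difference from control was 0.34 in miR-376a*A and -0.18 in miR-376a*G cells.

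ASNS encodes asparagine synthetase, a standard ATF4 target. It had 409, 406 and 393 in miR-376a*A cells, 475, 458 and 546 in miR-376a*G cells and 354, 422 and 417 in control cells. The miR-376a*G arrays lay above all the others, whereas for TRIB3 they lay below them. The miR-376a*A and control arrays of ASNS overlapped. The ASNS difference was -0.28 between miR-376a*A and miR-376a*G (limma adjusted p = 0.335) and 0.30 between miR-376a*G and control (limma adjusted p = 0.168), neither of which passed. Its promoter is shown because it holds a C/EBP-ATF core, the type of site that ATF4 binds, which was not found in the TRIB3 window. The core, TGATGNAA with any base at N, is in capitals apart from that base, and begins 68 bases before the start. The window lies at chr7:97872359-97872658, minus strand, in GRCh38.p14.
ASNS promoter: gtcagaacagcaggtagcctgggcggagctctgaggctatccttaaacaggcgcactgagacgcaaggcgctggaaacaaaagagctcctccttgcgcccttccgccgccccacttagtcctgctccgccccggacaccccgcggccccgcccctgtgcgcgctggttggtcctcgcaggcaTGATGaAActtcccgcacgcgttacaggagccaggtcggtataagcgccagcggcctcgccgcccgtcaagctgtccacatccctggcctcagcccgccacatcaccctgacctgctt
On either strand this core was found in 3 of 31 members (9.68%), namely ASNS, CHAC1 and HERPUD1, and in 3.67% of all promoters. A window without it does not show that ATF4 does not act on the gene.

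CHAC1, which degrades glutathione, was dim, at 42.9, 53.2 and 53.3 in miR-376a*A cells, 44.6, 67.1 and 51.6 in miR-376a*G cells and 51.5, 45.9 and 17.4 in control cells. Control replicate 3 was the lowest by far and the rest overlapped. CHAC1 differed by 0.34 with miR-376a*A (limma adjusted p = 0.587) and 0.43 with miR-376a*G (limma adjusted p = 0.411). Leaving out control replicate 3 gave 0.02 and 0.11 for CHAC1.

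DDIT3, which encodes the death-associated factor CHOP, had 184, 205 and 180.0 in miR-376a*A cells, 211, 238 and 204 in miR-376a*G cells and 319.9, 207 and 154 in control cells. PPP1R15A, which restores translation by reversing PERK's phosphorylation, had 207, 214 and 222 in miR-376a*A cells, 211, 191 and 174 in miR-376a*G cells and 346, 181 and 174 in control cells. For both, control replicate 1 was the highest of the 9 arrays. The DDIT3 difference was -0.19 in miR-376a*A and -0.00 in miR-376a*G cells over all arrays, and 0.08 and 0.26 without that array. The PPP1R15A difference was -0.05 and -0.20 over all arrays, and 0.25 and 0.10 without it. None of these passed. SESN2, a stress-induced regulator of growth signalling, differed by 0.07 with miR-376a*A and by -0.07 with miR-376a*G, or by 0.18 and 0.05 without control replicate 1.

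ERO1A, the oxidase that recharges protein disulfide isomerase, was read by 3 probe sets past the filter that disagree. The brightest, which represents the gene in the counts given so far, had 827, 794 and 769 in miR-376a*A cells, 766, 783 and 712 in miR-376a*G cells and 554, 750.3 and 769.6 in control cells. The groups overlapped, and the differences of 0.21 and 0.13 did not pass (limma adjusted p = 0.459 and 0.616). The second brightest had 608, 596 and 579.6 in miR-376a*A cells, 651, 627 and 642 in miR-376a*G cells and 255, 249.6 and 292 in control cells. The dimmest had 328, 323 and 322 in miR-376a*A cells, 329.7, 330.3 and 329 in miR-376a*G cells and 108, 94.0 and 94.9 in control cells. In both, all 6 arrays of the forms lay far above all 3 control arrays.

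The dimmest ERO1A probe set was 2.96-fold higher with miR-376a*A (log2 difference 1.57, limma adjusted p over probe sets = 2.69e-05) and 3.01-fold higher with miR-376a*G (1.59, 3.72e-05). The second brightest ERO1A probe set was 2.17-fold higher with miR-376a*A (1.12, limma adjusted p over probe sets = 0.000145) and 2.33-fold higher with miR-376a*G (1.22, 9.79e-05). Without control replicate 1 these differences were 1.62, 1.65, 1.09 and 1.197, in that order. Between miR-376a*A and miR-376a*G they were -0.02 and -0.10, and neither passed. Of the 35 other probe sets of members past the filter, 2 passed with miR-376a*A against control, 3 with miR-376a*G against control and 0 between the forms by limma over probe sets, where 2.81%, 3.76% and 2.04% of all 22896 probe sets did. These were the 2 of ERO1A and, with miR-376a*G, that of CANX, all higher than in control cells, and they were singled out after their values were seen. On leaving out control replicate 1, 4 of the 35 were higher with miR-376a*A, and 3 were higher and 3 lower with miR-376a*G, where 11.5% and 14.6% of all probe sets passed. The added ones were those of ATF6 and HSPA5 already given, which were lower, and with miR-376a*A 2 of CANX, which were higher. Whether the ERO1A probe sets read different transcripts was not tested.

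**Figure D4:**
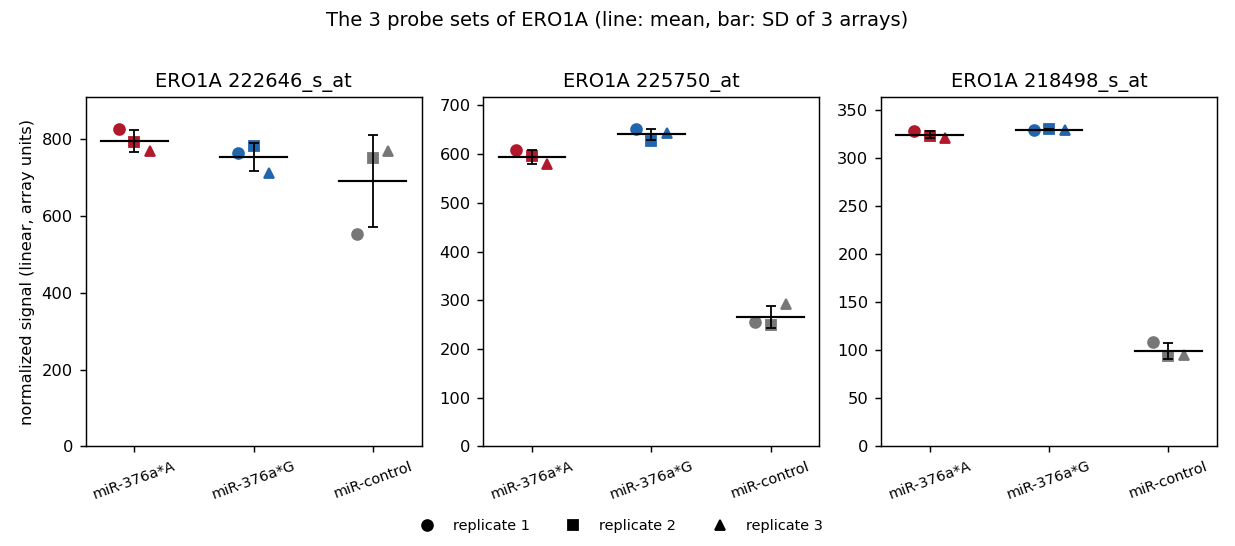
Normalized signal (y axis, linear array units from 0) of the 3 ERO1A probe sets in each array, with the mean as a line and the SD of 3 arrays as a bar. In the brightest, at the left, the groups overlap, whereas in the middle and right panels all 6 arrays of the forms lie above all 3 control arrays.

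Without control replicate 1, 5 of 32 members (15.6%) passed with miR-376a*A against control, where 13.3% of all genes did. They were XBP1, MANF, CRELD2 and TRIB3, which were higher, and DNAJC3, which was lower. With miR-376a*G against control 5 members passed, where 17.0% of all genes did. They were XBP1, MANF and CRELD2, which were higher, and CREB3L2 and TRIB3, which were lower. Between the forms 3 members (9.38%) passed, where 9.68% of all genes did, namely EDEM1 (0.29, limma adjusted p = 0.0406) and TRIB3, which were higher with miR-376a*A, and ASNS (-0.28, limma adjusted p = 0.0456), which was lower. Calls grew for the members as they grew for all genes, and by the brightest probe sets XBP1 was the only member past the test against control both with and without that array.

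**Figure D5:**
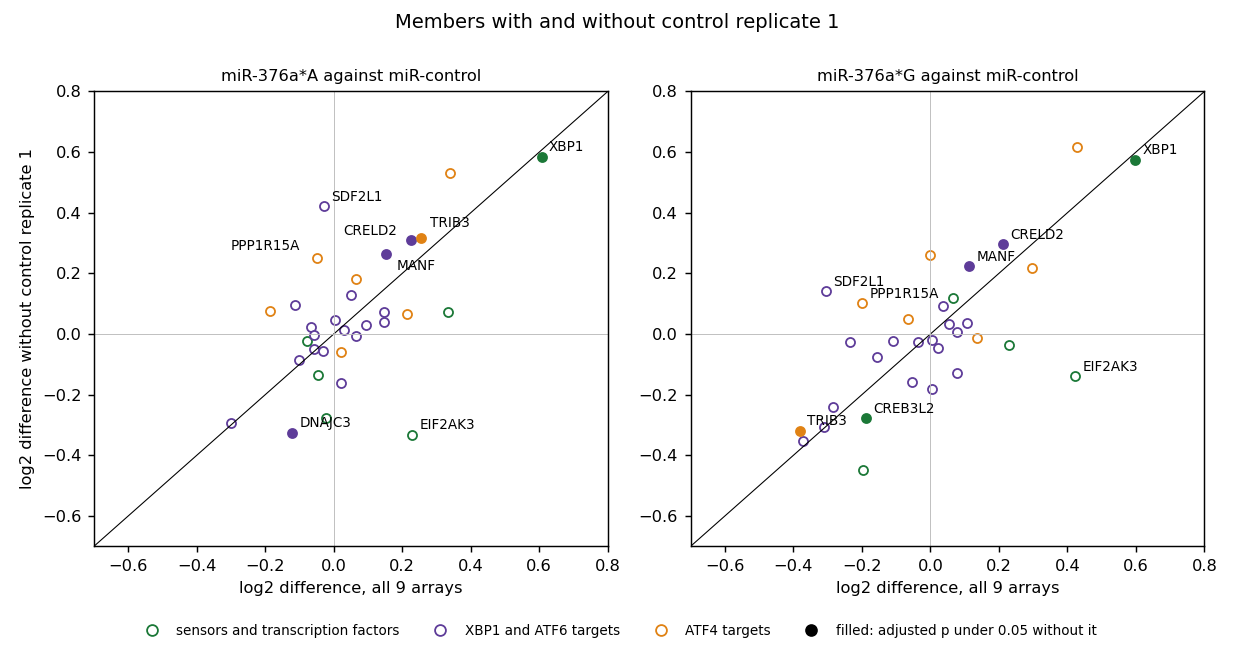
Log2 difference of each member against control over all 9 arrays (x axis) and without control replicate 1 (y axis), for miR-376a*A and miR-376a*G; the line marks equal values and filled points an adjusted p under 0.05 without that array. XBP1 lies close to the line (0.61 and 0.59 with miR-376a*A), whereas EIF2AK3 and SDF2L1 lie far from it, on opposite sides.

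The remaining genes of these pathways were taken as 6 further lists of 151 genes, of which 139 were tested. Over all arrays 5 of the 139 (3.60%) passed with miR-376a*A against control, 8 (5.76%) with miR-376a*G against control and 2 (1.44%) between the forms, where 3.33%, 4.62% and 2.63% of all genes did. On leaving out control replicate 1 these counts were 18 (12.9%), 20 (14.4%) and 11 (7.91%), where 13.3%, 17.0% and 9.68% of all genes passed. Genes that passed only without that array are named at the end of each list, and were chosen after their values were seen.

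Calumenin, encoded by CALU, a calcium-binding protein of the ER, had 2153, 2233 and 2147 in miR-376a*A cells, 2154, 2262 and 2368 in miR-376a*G cells and 1248, 1466 and 1467 in control cells. No control array reached any array of the forms, and CALU rose by 0.64 with miR-376a*A (limma adjusted p = 0.000812) and by 0.70 with miR-376a*G (limma adjusted p = 0.00053). Of 32 further folding and quality control genes, 2 rose with miR-376a*A, and 2 rose and 1 fell with miR-376a*G. FKBP14, a prolyl isomerase of the ER, was the other that rose, at 731 ± 18.9 in miR-376a*A cells, 739 ± 39.7 in miR-376a*G cells and 532 ± 65.0 in control cells (SD, n = 3 each; log2 difference 0.45 and 0.47). The thioredoxin-like protein TMX1 was the gene that fell, at 918 ± 72.3 with miR-376a*G and 1187 ± 46.4 with the control duplex (SD, n = 3 each; log2 difference -0.37). On leaving out control replicate 1, TMX3, a disulfide isomerase of the ER membrane, was lower with both forms (-0.48 and -0.35). RCN1 (-0.26) was then lower and SDF2 (0.34) higher with miR-376a*G, and TMX1 (0.24) and the glucosidase gene MOGS (0.34) were higher in miR-376a*A than in miR-376a*G cells.

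Of 22 translocon, signal peptidase and glycosylation genes, the signal peptidase subunit SPCS1 rose with both forms, by 0.49 in miR-376a*A and 0.50 in miR-376a*G cells, to 1909.9 ± 71.7 and 1922 ± 41.4 against 1360.0 ± 154 with the control duplex (SD, n = 3 each). TRAM2, which helps secretory chains into the translocon, fell by 0.41 with miR-376a*G, to 633 ± 29.7 against 846 ± 80.4 with the control duplex (SD, n = 3 each). None of 25 further ER-associated degradation genes passed limma's test over all arrays, with 5 (miR-376a*A against control), 4 (miR-376a*G against control) and 1 (between the forms) at an unadjusted p under 0.05. These were 20%, 16% and 4% of the 25, where 14.9%, 17.8% and 10.7% of all genes passed. With control replicate 1 left out, 2 of the 25 were higher and 1 lower with miR-376a*A, and 1 was higher with miR-376a*G. Of all genes, 13.3% and 17.0% then passed in these comparisons. The mannosidase family gene EDEM3 (0.37, limma adjusted p = 0.0211) and TMUB1 (0.48, 0.0185) were then higher and the deglycosylating enzyme gene NGLY1 (-0.44, 0.00301) lower with miR-376a*A, and AUP1 (0.34, 0.0267) was higher with miR-376a*G. None of 12 cytosolic and mitochondrial heat shock genes passed limma's test over all arrays, and none passed without control replicate 1. At an unadjusted p under 0.05, 0, 0 and 1 of the 12 passed in the same order of comparisons.

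Among 34 further ATF4 and amino acid response genes, 1 rose and 1 fell with miR-376a*A, and 1 rose and 2 fell with miR-376a*G. The transcription factor gene JDP2 rose with both, by 0.52 each, to 92.2 ± 6.76 in miR-376a*A cells and 92.3 ± 4.48 in miR-376a*G cells against 59.7 ± 4.83 with the control duplex (SD, n = 3 each). SLC7A11, the cystine importer, fell by 0.73 with miR-376a*A, to 409 ± 9.95 against 697 ± 136.5 with the control duplex (SD, n = 3 each). GARS1, the glycyl-tRNA synthetase, fell by 0.50 with miR-376a*G, to 1208 ± 81.3 against 1712 ± 127 with the control duplex (SD, n = 3 each).

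This list, the largest of the 6, gained the most calls when control replicate 1 was left out. Of its 34 genes, 4 were then higher and 4 lower with miR-376a*A, and 5 higher and 4 lower with miR-376a*G. Between the forms, 4 were higher and 4 lower in miR-376a*A than in miR-376a*G cells. Of all genes tested, 13.3%, 17.0% and 9.68% passed in these comparisons without that array. PHGDH, which opens serine synthesis, was then higher in miR-376a*A (0.61, limma adjusted p = 0.000431) and in miR-376a*G cells (0.58, limma adjusted p = 0.000534). Over all arrays its differences were 0.43 and 0.40 and did not pass (limma adjusted p = 0.186 and 0.179). With miR-376a*A the amino acid carrier SLC1A5 (0.40) was higher, and the tRNA synthetase genes EPRS1 (-0.39) and IARS1 (-0.25) and the cysteine synthesis gene CTH (-0.49) were lower. With miR-376a*G, CEBPG (0.37), WARS1 (0.33) and GDF15 (0.41) were higher, and XPOT (-0.26) and SLC7A11 (-0.51, limma adjusted p = 0.000975) lower. Between the forms CEBPB (0.29), GARS1 (0.32) and KLHL24 (0.45) were higher and SLC7A11 (-0.39), EPRS1 (-0.32), GDF15 (-0.43) and CTH (-0.43) lower with miR-376a*A.

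DDIT4, an inhibitor of growth signalling through mTORC1, had 1068, 1144 and 1206 in miR-376a*A cells, 693, 629 and 637 in miR-376a*G cells and 795, 987 and 918 in control cells. The order of the groups was that of TRIB3, and they did not overlap. DDIT4 fell by 0.45 with miR-376a*G against control (limma adjusted p = 0.0248), differed by 0.34 with miR-376a*A against control (limma adjusted p = 0.0969, or 0.25 and 0.049 without control replicate 1), and was higher in miR-376a*A than in miR-376a*G cells by 0.79 (limma adjusted p = 0.00161). Of 14 other signalling genes, MBTPS2, one of the proteases that cut ATF6, was the 1 that passed over all arrays, between the forms. It had 1063, 1032 and 979 in miR-376a*A cells, 562, 578 and 599 in miR-376a*G cells and 622, 798 and 954 in control cells. The groups did not overlap, and MBTPS2 was higher in miR-376a*A than in miR-376a*G cells by 0.80 (limma adjusted p = 0.00941). Against control the MBTPS2 difference was 0.39 in miR-376a*A and -0.42 in miR-376a*G cells, and neither passed over all arrays (limma adjusted p = 0.184 and 0.116). Without control replicate 1 the difference with miR-376a*G was -0.58 (limma adjusted p = 0.000892). In the same list PPP1R15B, a partner of the phosphatase that opposes PERK, was then lower with both forms (-0.37, limma adjusted p = 0.0163, and -0.33, 0.023). ATF6B (-0.49, limma adjusted p = 0.0252) was lower and CREB3L4 (0.39, 0.0421) higher with miR-376a*A.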

How the data were processed

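The authors deposited linear intensities of 54675 probe sets on 9 arrays, 3 per group. The submitters' processing notes name GCOS 1.4.0.036, and how probes were summarised and background removed is not given in the sources used here. The trimmed mean (2% at each end) of the deposited arrays was 100.01 to 100.013, so they had been scaled to a common level. A change shared by most transcripts would therefore not be seen. Here intensities were turned into log2(signal + 16) and quantile normalized. A normalized signal is that value turned back to the linear scale less the 16 that had been added.

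The platform annotation gave 1 gene symbol for 41097 probe sets, several for 1801 and none in this table for 11777. Symbols were updated through the gene ID in RefSeq (GRCh38.p14). Probe sets below the 50th percentile of the mean (log2 value 5.17) were dropped, and the brightest of each gene was kept, which gave 12505 genes. Of the 32 members, 9 had 1 probe set and 23 had several. Sequences and coordinates are RefSeq's, from GRCh38.p14, matched by symbol, with the first listed start for each promoter.

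The 3 groups were fitted together in R 4.3.3 with limma 3.58.1 (lmFit, eBayes with an intensity trend), with Benjamini-Hochberg adjustment over all genes and a threshold of 0.05. Other probe sets were fitted over all named probe sets past the filter. The procedure was tested on simulated data. Errors are SD over arrays or SE of the log2 difference. The number of arrays limits the precision, and p-values measure the spread between arrays that the labels call biological replicates. Leaving out control replicate 1 kept the normalized values and genes of all arrays.

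The members and lists were chosen with earlier results of these data known, so lists are described by counts and medians, with no test of their own. All 32 members are named. Members past the test and the 6 with the largest difference among the rest are given in full, and up to 4 genes past the test per other list and comparison. Further members are given in full, and other pathway genes and probe sets named, where they pass without control replicate 1, where probe sets disagree or where a role called for it, and these were chosen after their values were seen. Replicate numbers are shared by the groups. For miR-376a*G against control, same-numbered arrays deviated together from their group means (r of 0.13 to 0.19 over all genes), all above the limit of 0.1. The numbers were therefore taken to pair those arrays, from the data and not from the labels. The intervals and p-values given still come from the fit without a replicate block, except where the block is named. Alternatives covered the offset, normalization, filter, probe set rule, arrays fitted, array weights, replicate block, intensity trend and leaving out each array.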

Additional observations from a re-analysis of the deposited data

Results flagged for a closer look

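TRIB3, DDIT4 and MBTPS2 were on opposite sides of the control with the 2 forms, and the difference between miR-376a*A and miR-376a*G passed limma's test. TRIB3 differed by 0.64 on the log2 scale, DDIT4 by 0.79 and MBTPS2 by 0.80, all higher with miR-376a*A. Of these 3, DDIT4 alone passed against control over all 9 arrays, and only with miR-376a*G. A dimmer TRIB3 probe set was not below the control with miR-376a*G (0.03).

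Of the 35 probe sets past the filter that do not represent their gene in the counts, 2 passed as higher than in control cells in the comparison of miR-376a*A, while 3 did so with miR-376a*G. Of all 22896 probe sets, 2.81% and 3.76% passed in these comparisons, in either direction. The dimmest of the 3 ERO1A probe sets was higher than in control cells by 1.57 with miR-376a*A and by 1.59 with miR-376a*G, and the second brightest by 1.12 and 1.22, while the brightest ERO1A probe set differed by 0.21 and 0.13. Another CANX probe set was higher by 0.41 with miR-376a*G, while the brightest differed by 0.11.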

How the results depend on the processing

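The XBP1 rise passed in all 20 alternatives with either form, at 0.55 to 0.71 with miR-376a*A (limma adjusted p between 2.66e-05 and 0.0374) and 0.54 to 0.69 with miR-376a*G (5.86e-05 to 0.0482). TRIB3 between miR-376a*A and miR-376a*G passed in 17 of 20, at 0.51 to 0.68 (1.84e-05 to 0.0658). The medians of the target lists moved by less than the SD between arrays of the list's median log2 value in every alternative run. That SD, 0.15 for XBP1 and ATF6 targets and 0.25 for ATF4 targets, is wide beside medians near 0, so this bound does not settle their sign. With miR-376a*A against control the median of the XBP1 and ATF6 targets was 0.003 in the main fit and -0.048 without control replicate 2. The median of all genes stayed within 0.1 of 0 in each. The count of members past the test, 1 in each comparison, was 2 with miR-376a*A against control with the mean of the probe sets (ERO1A added), 7 with array weights and 1 to 5 on leaving out single arrays. With miR-376a*G against control it was 2 without normalization, 2 without an intensity trend (both adding TRIB3), 2 with the mean of the probe sets, 5 with array weights and 1 to 5 on leaving out single arrays. Between the forms it was 2 with only the 6 arrays compared, 3 with array weights and 0 to 3 on leaving out single arrays. The 0 arose without miR-376a*A replicate 2 or 3 or miR-376a*G replicate 2, and 3 without control replicate 1, as did both counts of 5. Of all genes, array weights called 18.5% (miR-376a*A against control), 19.4% (miR-376a*G against control) and 13.2% (between the forms), beside 21.9%, 15.6% and 9.38% of members. With the replicate block 1 member passed in each comparison and no call of a member changed. Over all genes the block gave 292 in place of 417 calls with miR-376a*A against control and 223 in place of 329 between the forms. Same-numbered arrays correlated there with r of -0.36 to 0.03 and -0.10 to -0.03, and 1 of 6 and 0 of 6 arrays correlated best with their own number. Directions reversed for members that did not pass, and the cause was not tested. With miR-376a*A against control, SDF2L1 was 0.036 with arrays centred on their medians and 0.29 with array weights (-0.42 to 0.42 on leaving out single arrays). PDIA3 was 0.0095 with the mean of the probe sets (-0.21 to 0.10), and EIF2AK3 -0.25 with array weights (-0.33 to 0.56). With miR-376a*G against control, EIF2AK3 was -0.048 with array weights (-0.14 to 0.75), and on leaving out single arrays ERN1 was -0.035 to 0.38 and SDF2L1 -0.69 to 0.14. Between the forms HYOU1 was -0.039 with array weights (-0.083 to 0.12), and on leaving out single arrays XBP1 was -0.018 to 0.048 and CHAC1 -0.19 to 0.037. Against control CHAC1 was 0.02 to 0.53 in miR-376a*A cells, and in miR-376a*G cells 0.11 to 0.62, lowest without control replicate 3. CHAC1 was dim, where the log2(signal + 16) scale understates differences.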
